A study of Homo sapiens with 4 samples.

Results

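Of the 937 OVCA420 cells retained after 1 day of TGF-β1, 90 still carried at least 5 *TOP2A* UMIs per 10000 UMIs of the cell, which is 9.61% of them (exact binomial 95% interval 7.79 to 11.7). These 90 cells are called cycling here. They were compared with the 729 cells of the same library under 1 per 10000, called not cycling, while the 118 cells between the limits were set aside and are given beside them. Across all libraries, 3144 cells were retained. All come from the first part of each library in barcode order, at 1-day from the first 945 of 2601 listed cells. *TOP2A* (ENSG00000131747, chromosome 17, 40388525 to 40417896 on GRCh38) encodes topoisomerase II alpha, which untangles replicated DNA, and its transcript builds up in S phase and peaks in G2 and mitosis. Because *TOP2A* chose the groups, and the other genes were counted in the same cells, the differences between the groups are descriptions and none was tested.

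OVCA420 is an established epithelial ovarian cancer line. Untreated cells (Ctrl) and cells kept for 1, 3 or 7 days in 10 ng/mL TGF-β1 were profiled by droplet-based scRNA-seq, with treatment starts staggered so that all cells were collected together. Each condition is 1 library of 1 cell line, so no condition has a replicate, and cells of a library are not replicates. The libraries shared between 1 and 7 cell barcodes per pair, with 7 shared by Ctrl and 1-day.

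In epithelial cells, TGF-β1 acts through receptor kinases and SMAD proteins, and it does several things at the same time. It turns on matrix, cytoskeleton and transcription factor genes of the epithelial-mesenchymal transition (EMT), and it holds many epithelial cells in G1 by raising the inhibitors CDKN2B and CDKN1A and lowering MYC. A cell that has passed into S phase runs through replication and mitosis on E2F, B-MYB and FOXM1 target genes. A population caught early in treatment can therefore hold cells in both states, and the question asked of these data was which genes of the response and which inhibitors differed between them.

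The 90 cycling cells held 3972718 UMIs, with a median of 42178 per cell, and the 729 not cycling cells held 25047491, with a median of 32161. The share of mitochondrial UMIs was similar, with medians of 7.35% and 7.49%, and 3 cycling and 5 not cycling cells were marked as doublets. *TOP2A* ranged from 5.01 to 43.2 UMIs per 10000 in cycling cells, with a median of 13.4. No *TOP2A* UMI was found in 508 of the 729 not cycling cells. Just inside the upper limit, 10 cells lay between 5.01 and 5.84, and just outside it 23 cells lay between 4.03 and 4.95. At the lower limit, 61 cells lay between 0.50 and 0.98 and 29 between 1.01 and 1.49. The groups are thus cut from a continuous range. Called by lists of phase genes, which include *TOP2A* itself, 77 cycling cells were in G2/M, 13 in S and none in G1. Of the not cycling cells, 667 were called G1, 48 S and 14 G2/M, so that the group is low in *TOP2A* but not free of dividing cells. Of the 118 cells between the limits, 66 were called G2/M, 18 S and 34 G1. The 90 cycling cells are thus those above the *TOP2A* limit and not all 1-day cells called S or G2/M.

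By the same limits the cycling share was 40.2% in Ctrl (375 of 933 cells, 37.0 to 43.4), 24.5% at 3-day (173 of 705) and 30.6% at 7-day (174 of 569). It was lowest at 1-day, and the 1-day interval did not overlap those of the other libraries, which cover counting error only. With every cell thinned to 18000 UMIs and grouped again on the thinned counts, the share was 11.1% at 1-day (100 of 900 cells, with 37 shallower cells left out) and 41.6% in Ctrl (351 of 844, with 89 left out). The difference between libraries was larger than the counting error in both cases, and it has no replicate check. In the earlier and the later part of the analysed 1-day cells in barcode order the share was 6.84% and 12.4%, both outside the 1-day interval. The shares describe the analysed part of each library only.

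**Figure D1:**
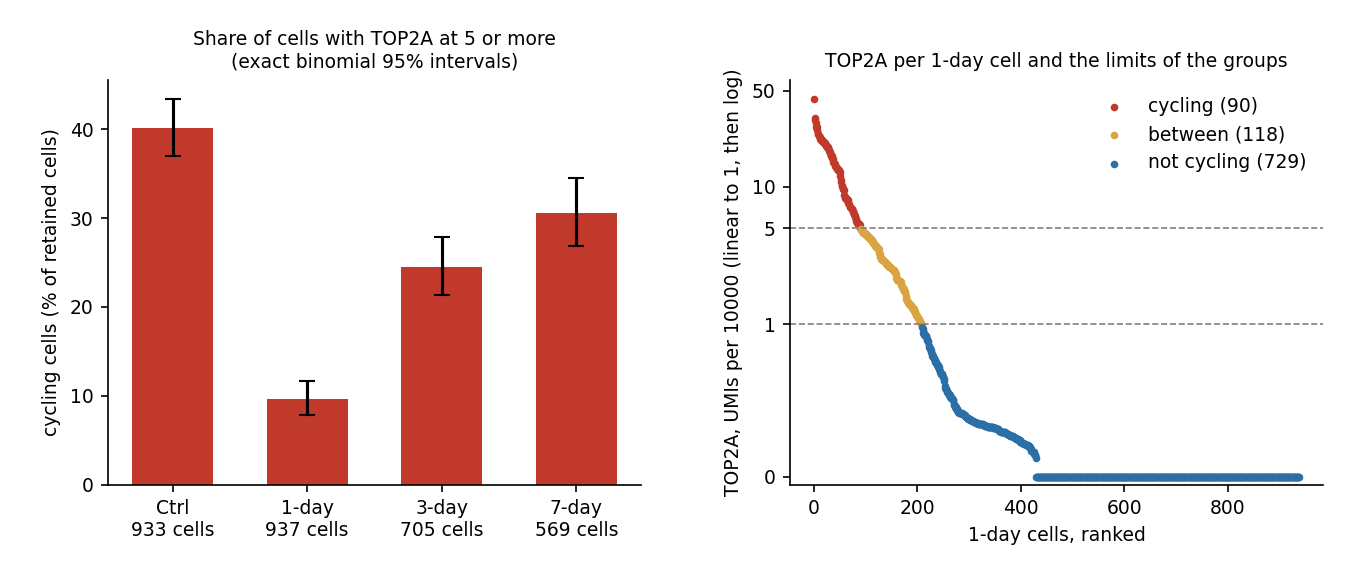
The left panel plots the percent of retained cells with *TOP2A* at 5 or more per 10000 UMIs in each library, with exact binomial 95% intervals; the 1-day bar, at 9.61%, is the lowest. The right panel plots *TOP2A* of the 937 1-day cells in rank order, on an axis that is linear to 1 and logarithmic above, with dashed lines at the limits of 5 and 1; cells fall on both sides of each limit without a gap.

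Gene levels are given as CPM, the UMIs of a gene scaled by the total of all cells in the group. Their log2 ratios have exact conditional 95% counting intervals, which leave out the variation from cell to cell. At least 20 CPM in either 1-day group was reached by 5716 genes other than *TOP2A*. Among them, 749 (13.1%) were at least 1.5-fold higher in cycling cells and 211 (3.69%) at least 1.5-fold lower. The median log2 ratio of all of them was 0.07, and 4756 (83.2%) lay within 1.5-fold. A gene that is low in not cycling cells can reach 20 CPM through cycling cells alone, and the reverse holds too. Counts of list members at 20 CPM therefore describe those members and not the whole list. The largest differences were all in 1 direction, from 7.35 at the top to -1.55 at the bottom. Cycling cells held more UMIs in all, so on the scale of UMIs per cell the median was 0.43. Differences are given relative to the total UMIs of a group unless said otherwise.

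**Figure D2:**
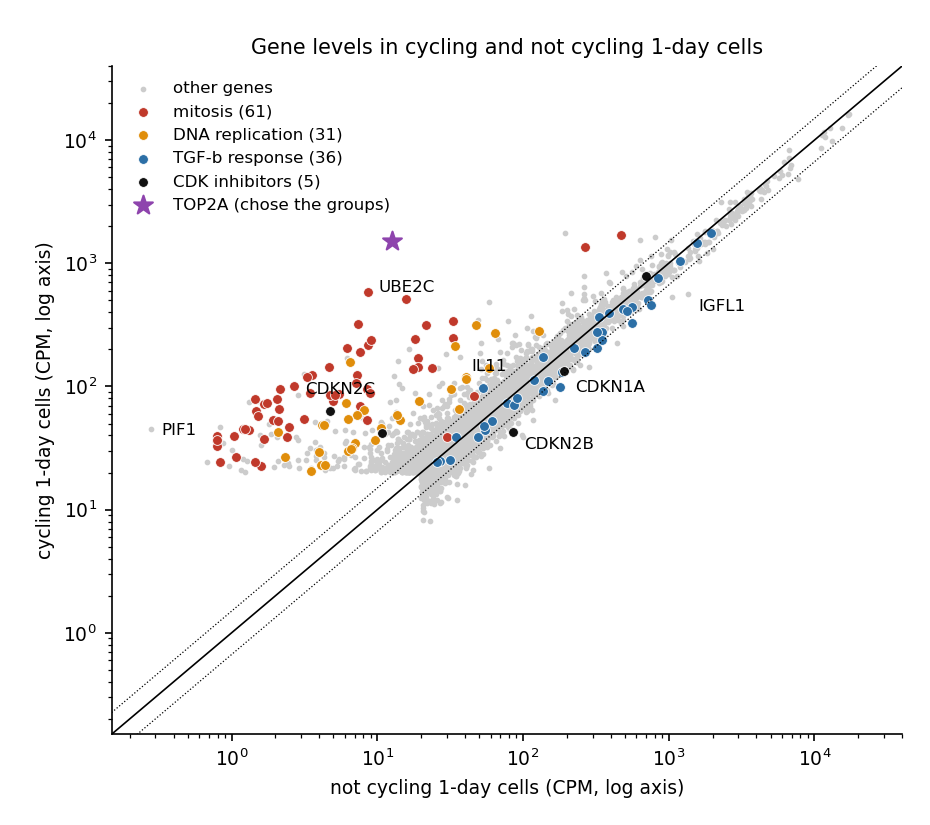
Each point is a gene, with its level in not cycling 1-day cells on the x axis and in cycling 1-day cells on the y axis, both in CPM on log axes, the solid line marking equal levels and the dotted lines a 1.5-fold difference. Mitosis genes other than *FZR1* and DNA replication genes lie above the lines, while the 36 TGF-β1 response genes lie near the diagonal, 31 of them below it, with *IL11* above the upper dotted line and *ITGB6*, *SOX4*, *THBS1*, *LAMB3* and *COL4A1* below the lower one.

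Genes of mitosis made up most of the top of the range. Of the 69 members of the mitosis list, which leaves out *TOP2A*, 61 reached 20 CPM, 60 of these were at least 1.5-fold higher in cycling cells (background 13.1%) and none was lower. Their median log2 ratio was 4.65, and the lowest was *FZR1* at 0.36, an activator of the anaphase-promoting complex. The 10 genes of highest ratio were *PIF1*, *TOP2A*, *UBE2C*, *DEPDC1*, *ARHGAP11A*, *ASPM*, *FAM83D*, *SPC25*, *CKAP2L* and *NCAPG*. *PIF1*, a DNA helicase, was at 45.6 CPM in cycling cells and at 0.28 CPM in not cycling cells, where it rested on 7 UMIs, and its log2 ratio was 7.35 (6.28 to 8.68). *UBE2C*, the ubiquitin-conjugating enzyme of the anaphase-promoting complex, was at 587 CPM against 8.66 CPM. *ASPM*, a spindle pole protein, was at 78.5 CPM against 1.44 CPM, and *SPC25*, a kinetochore subunit, at 39.3 CPM against 0.80 CPM. All of these genes belong to the program of late S phase, G2 and mitosis that *TOP2A* marks, so they restate the choice of the cells. List members such as *UBE2C*, *ASPM* and *SPC25* also passed 20 CPM through cycling cells alone, which fixed their direction.

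By role, the median log2 ratio was 4.91 for 12 kinetochore and centromere genes, 4.79 for 7 mitotic kinases and for 16 spindle and kinesin genes. It was 3.86 for 9 cyclins and partners of CDK1, 3.74 for 9 condensin and chromatin genes and 3.60 for 8 genes of the anaphase-promoting complex and mitotic exit. *CDK1*, the kinase that drives entry into mitosis, was at 95.1 CPM in cycling, 13.0 CPM in between and 2.16 CPM in not cycling cells. *CCNB1*, its cyclin, was at 123, 88.6 and 7.27 CPM. *PLK1*, a mitotic kinase, was at 100.2, 38.4 and 2.67 CPM. The cells between the limits were thus closer to cycling cells for *CCNB1* than for *CDK1*. *PTTG1*, which encodes securin, which keeps sister chromatids together until anaphase, was as high in the cells between the limits (256 CPM) as in cycling cells (246 CPM) and was at 33.0 CPM in not cycling cells.

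Promoters of this group were searched for 2 sequence elements that are known for late cell cycle genes. They are the cell cycle genes homology region (CHR), searched as TTTGAA or TTCGAA, and the CCAAT box, searched as CCAAT, each on both strands and in the 250 bases before the RefSeq start. A CHR match was found in 26 of the 52 mitosis promoters that could be matched by symbol (50%), a CCAAT match in 37 (71.2%) and both in 21 (40.4%). Over all 27305 RefSeq promoters of the same length the shares were 14.6%, 33.0% and 5.24%, and over the 4718 matched promoters of genes at 20 CPM they were 9.54%, 36.5% and 4.49%. Among DNA replication genes, 3 of 26 promoters (11.5%) held a CHR match and 14 (53.8%) a CCAAT match, and among TGF-β1 response genes 1 of 28 (3.57%) and 12 (42.9%). Matches of both elements that share end bases were counted for each, a match is a description of the letters only, and no share was tested. Of the 10 genes of highest ratio, 8 had a promoter in the table, 7 of these a CHR match and 6 both elements, while that of *ARHGAP11A* had neither. Of the 10 genes of lowest ratio, 7 had a promoter and 2 of these both elements. The promoters of *TOP2A*, which chose the cells, and of 3 of the other 5 that hold both elements are shown. They are from RefSeq on GRCh38.p14, all on the minus strand, written 5′ to 3′ and ending at the base before the start, with CHR and CCAAT matches of either strand in capitals (TTTGAA or TTCAAA, and CCAAT or ATTGG), none of which overlap.
TOP2A (chr17:40417897-40418146): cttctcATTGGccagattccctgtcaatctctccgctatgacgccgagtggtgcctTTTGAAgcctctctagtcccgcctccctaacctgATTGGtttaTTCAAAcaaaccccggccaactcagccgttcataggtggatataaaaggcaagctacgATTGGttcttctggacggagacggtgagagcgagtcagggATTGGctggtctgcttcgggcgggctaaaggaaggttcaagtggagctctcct
PIF1 (chr15:64825648-64825897): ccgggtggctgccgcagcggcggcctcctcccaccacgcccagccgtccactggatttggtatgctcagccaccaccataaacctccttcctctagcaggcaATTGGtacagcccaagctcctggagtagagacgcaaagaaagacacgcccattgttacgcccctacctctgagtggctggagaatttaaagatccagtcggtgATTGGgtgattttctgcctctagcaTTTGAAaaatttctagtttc
DEPDC1 (chr1:68497083-68497332): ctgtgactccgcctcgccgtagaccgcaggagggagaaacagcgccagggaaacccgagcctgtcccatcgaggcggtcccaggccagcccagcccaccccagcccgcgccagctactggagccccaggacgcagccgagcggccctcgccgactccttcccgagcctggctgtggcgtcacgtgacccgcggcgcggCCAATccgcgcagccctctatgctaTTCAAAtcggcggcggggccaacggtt
CKAP2L (chr2:112764610-112764859): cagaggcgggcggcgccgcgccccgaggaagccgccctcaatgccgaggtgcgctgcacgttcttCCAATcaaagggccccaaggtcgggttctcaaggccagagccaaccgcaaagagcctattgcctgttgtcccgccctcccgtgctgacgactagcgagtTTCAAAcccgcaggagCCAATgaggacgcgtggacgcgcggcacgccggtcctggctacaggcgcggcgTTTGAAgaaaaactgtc
The *TOP2A* promoter held 2 CHR and 4 CCAAT matches, that of *PIF1* 1 and 2, that of *DEPDC1* 1 and 1, and that of *CKAP2L* 2 and 2. In *PIF1*, *DEPDC1* and *CKAP2L* the CHR match nearest to the start began 20, 27 and 17 bases before it, with a CCAAT match 45, 52 and 70 bases before it. The nearest CHR match was farther away in *TOP2A*, at 151 bases, and in the promoters of *ASPM* and *SPC25*, which are not shown, at 113 and 247 bases.

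DNA replication genes were higher in cycling cells too, though by less. Of 52 members, 31 reached 20 CPM, and each of the 31 was at least 1.5-fold higher (background 13.1%), with a median log2 ratio of 2.32 and a range from 0.85 to 4.62. Members such as *RRM2* and *CDC6* passed 20 CPM through cycling cells alone, which fixed their direction, so the count is a description only. With no minimum level the list median was 2.25. *RRM2*, a subunit of ribonucleotide reductase, had the highest ratio, with 159 CPM in cycling against 6.47 CPM in not cycling cells. *PCNA*, the sliding clamp of the polymerases, was at 118 CPM against 40.4 CPM, a log2 ratio of 1.55 (1.39 to 1.71). *CDC6*, which loads the replicative helicase, was at 31.5 CPM against 6.71 CPM. *SLBP*, which binds histone mRNA, had the lowest ratio, with 65.7 CPM against 36.5 CPM. The 13 cycling cells called S had a median of 52.2 UMIs per 10000 over the 52 replication genes, and the 77 called G2/M had 24.4. For the 69 mitosis genes the order was the opposite, with medians of 63.8 and 104. The lists used to call phases hold members of both gene lists, so these orders restate the calls.

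In Ctrl the same comparison gave a smaller contrast. The median log2 ratio of cycling to not cycling cells was 2.99 for mitosis genes in Ctrl against 4.65 at 1-day, and 0.57 for replication genes against 2.32. At 3-day the medians were 3.94 and 1.64, and at 7-day 3.24 and 1.66. Among the members at 20 CPM, the values that differed from Ctrl were mainly those of not cycling cells. That limit was set on 1-day cells only, and members such as *UBE2C*, *RRM2* and *CDC6* passed it through cycling cells alone. Members that were under it in both 1-day groups are left out, so the medians and counts against Ctrl are descriptions only. In not cycling cells, the log2 ratio of 1-day to Ctrl had a median of -0.98 over the mitosis genes and -2.02 over the replication genes, and 30 of 31 replication genes were at least 1.5-fold lower (background 14.2%). In cycling cells the medians were 0.42 and -0.20, and 4 of the 31 were at least 1.5-fold lower (background 7.87%). *E2F1*, the transcription factor of the G1 to S transition, was at 50.1 CPM in not cycling Ctrl cells and at 5.87 CPM in not cycling 1-day cells, and at 42.2 and 22.7 CPM in cycling cells. *CDC6* was at 65.4 and 6.71 CPM in not cycling, and at 63.6 and 31.5 CPM in cycling cells. Not cycling Ctrl cells held 60 cells called S and 4 called G2/M among 234 (25.1% of Ctrl), so this group was of another makeup than at 1-day.

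Among 4250 genes with at least 20 CPM in all 4 groups, the ratio of cycling to not cycling cells exceeded that in Ctrl most for *PTTG1*, *C19orf48*, *CKS1B*, *USP1* and *KIAA0101*. *CKS1B*, which encodes a CDK partner that also helps to degrade CDKN1B, was at 487 CPM in cycling and 58.5 CPM in not cycling 1-day cells, and at 401 and 146 CPM in Ctrl. Its difference in log2 ratio was 1.60 (approximate 95% interval 1.46 to 1.73). *USP1*, a deubiquitinase of PCNA, was at 141 and 26.0 CPM at 1-day and at 157 and 86.8 CPM in Ctrl. *KIAA0101*, which encodes a PCNA-binding factor, was at 318 and 47.7 CPM at 1-day and at 286 and 126 CPM in Ctrl. For all of them the levels in cycling cells of the libraries were within 1.5-fold of each other, except *C19orf48*, which was at 106 CPM at 1-day and 224 CPM in Ctrl. Over these 4250 genes the log2 ratios at 1-day and in Ctrl had a Pearson r of 0.76, across genes that are not independent and without any cell in common.

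TGF-β1 response genes at 20 CPM were present in cycling cells and lay mostly within 1.5-fold of not cycling cells, as most genes did. More of them lay below the level of not cycling cells than above it. Of 59 members of the list, 36 reached 20 CPM in either 1-day group. Against Ctrl cycling cells, 35 of the 36 were at least 1.5-fold higher in 1-day cycling cells (background 18.5%), with a median log2 ratio of 2.28. Against Ctrl not cycling cells, 34 of the 36 were at least 1.5-fold higher in 1-day not cycling cells (background 19.4%), with a median of 2.49. *BAMBI*, a decoy receptor that dampens TGF-β signalling, was the 1 member at least 1.5-fold lower in cycling cells, at 52.4 CPM against 95.8 CPM in Ctrl. The limit of 20 CPM was set on 1-day cells only. Members such as *IL11*, *FSTL3* and *COL1A1* were under it in both Ctrl groups. They passed through 1-day cells alone, which fixed their direction, so these counts are descriptions only. Over all 59 members without the filter on low levels the medians were 2.01 and 2.02. The list was put together from known targets, with earlier results of these data known, so its direction against Ctrl is not independent evidence.

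Between the 1-day groups, 1 of the 36 members was at least 1.5-fold higher in cycling cells (background 13.1%), 5 were at least 1.5-fold lower (background 3.69%) and 30 were within 1.5-fold (background 83.2%). Their median log2 ratio was -0.22, against 0.07 for all genes, and 31 of the 36 were below 0, as were 2399 of all 5716 genes. On the scale of UMIs per cell the median turned to 0.14 and 10 of the 36 were below 0, none of them by 1.5-fold, because a cycling cell held more UMIs. On that scale all 5716 genes shifted up too, to a median of 0.43, with 581 below 0 and 31 lower by 1.5-fold. The list median was thus below that of all genes on both scales. The median was -0.20 in Ctrl, -0.25 at 3-day and -0.35 at 7-day, where the cells compared are others. On the CPM scale the list median was thus slightly below 0 in each library, treated or not, but not through the same genes. *THBS1*, *COL4A1* and *SERPINE2*, lower in cycling cells at 1-day, had log2 ratios of 0.06, 0.40 and 0.33 in Ctrl. *LAMB3* and *SOX4* were lower in Ctrl too, at -0.63 and -0.64.

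Feedback genes of the SMAD pathway were at similar levels in both groups, as most genes were. *PMEPA1*, a feedback inhibitor that binds SMAD proteins, was at 1475 CPM in cycling and 1554 CPM in not cycling 1-day cells, against 63.7 and 84.1 CPM in Ctrl. *SMAD7*, the inhibitory SMAD, was at 24.9 and 26.8 CPM, against 4.32 and 5.00 CPM in Ctrl. *SKIL*, a SMAD corepressor, was at 205 and 223 CPM, against 40.4 and 33.8 CPM. None of the 10 feedback and signalling genes at 20 CPM differed by 1.5-fold between the 1-day groups, where 83.2% of all genes were within that range, and their median log2 ratio was -0.09.

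Matrix and secreted genes were more divided, with a median log2 ratio of -0.33 over 15 genes. *THBS1*, a matricellular protein that activates latent TGF-β, was at 457 CPM in cycling against 753 CPM in not cycling cells (log2 ratio -0.72, -0.79 to -0.65). *COL4A1*, a basement membrane collagen, was at 91.1 CPM against 138 CPM, and *LAMB3*, a laminin-332 chain, at 206 CPM against 320 CPM. *COL1A1*, the fibrillar collagen, went the other way, at 174 CPM against 137 CPM (0.34, 0.22 to 0.46).

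*IL11* (ENSG00000095752, chromosome 19, 55364382 to 55370463), a cytokine of the IL6 family and a known TGF-β target, was the member that was higher. It was at 97.2 CPM in cycling cells (87.7 to 107), 89.6 CPM in the cells between the limits and 53.5 CPM in not cycling cells (50.7 to 56.5), a log2 ratio of 0.86 (0.69 to 1.02). At an equal depth of 18000 UMIs per cell, at least 1 *IL11* UMI was found in 60.7% of cycling (49.7 to 70.9) and 41.3% of not cycling cells (37.6 to 45.0), and without thinning in 74.4% and 50.9%. In Ctrl the shares at equal depth were 1.48% and 0.94%. No cell type that lacks the gene was in the libraries, so no share due to free RNA could be measured, and the Ctrl shares give what was found without treatment. The log2 ratio of cycling to not cycling cells was 0.44 in Ctrl, on 0.77 and 0.57 CPM, and 0.57 at 3-day and 1.07 at 7-day.

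Of the EMT transcription factors, *SOX4* was at 329 CPM in cycling, 439 CPM in between and 561 CPM in not cycling cells, a log2 ratio of -0.77 (-0.85 to -0.69), and it was 3.76-fold and 4.12-fold higher than in Ctrl. Per cell the groups overlapped, with quartiles from 1.38 to 4.71 UMIs per 10000 in cycling and from 2.87 to 7.61 in not cycling cells. *SNAI2*, a repressor of epithelial genes, was at 47.6 and 53.7 CPM, and the sign of its log2 ratio of -0.17 (-0.40 to 0.05) turned to 0.18 after thinning to equal depth. On the scale of UMIs per cell its log2 ratio was 0.19, where the median of all genes was 0.43. *JUNB* was at 395 and 387 CPM. *SNAI1* rested on 4 and 28 UMIs and *ZEB1* on 3 and 5, which was too little to compare. Of 12 genes of the actin and mesenchymal cytoskeleton, 6 reached 20 CPM, and these 6 were below 0 on the CPM scale, from *ITGB1* and *TPM1* at -0.16 to *ITGB6* at -0.87, with 98.4 CPM against 180 CPM. *ITGB6* encodes a chain of the integrin that activates latent TGF-β. Of those under 20 CPM, the smooth muscle gene *TAGLN* was higher in cycling cells (1.25, 0.25 to 2.18), on 14 and 37 UMIs. *ITGA5*, also under 20 CPM, was lower (-1.06, -2.22 to -0.08), on 9 and 118 UMIs.

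**Figure D3:**
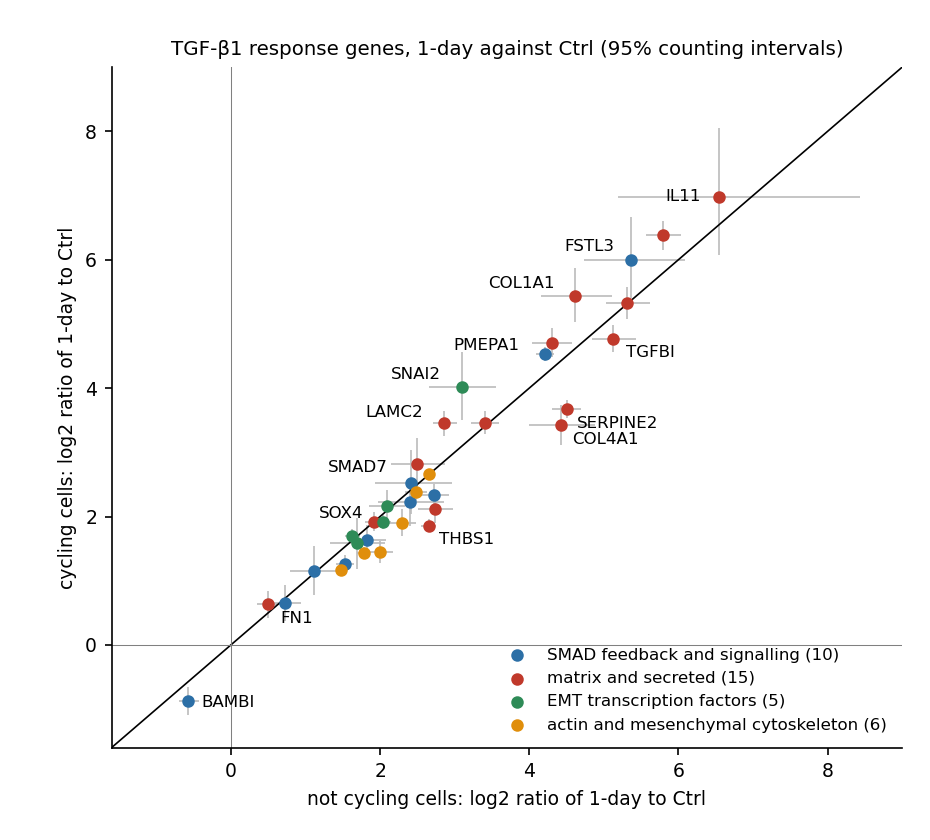
Each point is 1 of the 36 TGF-β1 response genes, with its log2 ratio of 1-day to Ctrl in not cycling cells on the x axis and in cycling cells on the y axis, 95% counting intervals as lines and the diagonal marking equal ratios. The genes lie along the diagonal up to *IL11*, with *COL4A1*, *SERPINE2* and *THBS1* below it, and *BAMBI* is the gene under 0 on both axes.

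The ratio of 1-day to Ctrl differed between cycling and not cycling cells for some members. It was lower in cycling cells by more than the approximate interval for 11 of the 36 and higher for 6, while over all genes this was so for 631 and 1139 of 5716. *COL4A1* was 10.7-fold above Ctrl in cycling and 21.5-fold in not cycling cells, with an interval of the difference in log2 ratio from -1.53 to -0.48. *SERPINE2*, a protease inhibitor, was 12.7-fold and 22.7-fold above Ctrl (-0.83, -1.07 to -0.60). *THBS1* was 3.63-fold and 6.26-fold above (-0.78, -0.92 to -0.65). *SNAI2*, on the other hand, was 16.2-fold and 8.55-fold above Ctrl (0.92, 0.26 to 1.59) and *COL1A1* 43.3-fold and 24.6-fold (0.82, 0.21 to 1.43). The folds of these genes rest on low Ctrl levels, 2.93 and 6.28 CPM for *SNAI2* and 4.02 and 5.57 CPM for *COL1A1*. Those of *COL4A1* rest on 8.49 and 6.43 CPM. These intervals cover counting error only and rest on 1 library each.

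In single cells, the 59 response genes summed to between 22.1 and 201 UMIs per 10000 in cycling 1-day cells, with a median of 113. In not cycling cells the median was 135, with a range from 18.1 to 417. Ctrl cells had medians of 17.2 (cycling) and 18.5 (not cycling), and the highest Ctrl cell was at 80.3. Of the 90 cycling cells, 70 (77.8%) lay above this highest Ctrl cell, as did 654 of 729 not cycling cells (89.7%) and 98 of the 118 cells between the limits (83.1%). Most cells that were cycling at 1-day thus had a load above that of every Ctrl cell, and 20 of the 90 lay within the range of Ctrl cells. The median was 121 in the 13 cycling cells called S and 108 in the 77 called G2/M. Within cycling cells the response and the mitosis load had a Spearman rho of -0.15, and within not cycling cells of -0.18, over 90 and 729 cells of 1 library that share its depth and free RNA.

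**Figure D4:**
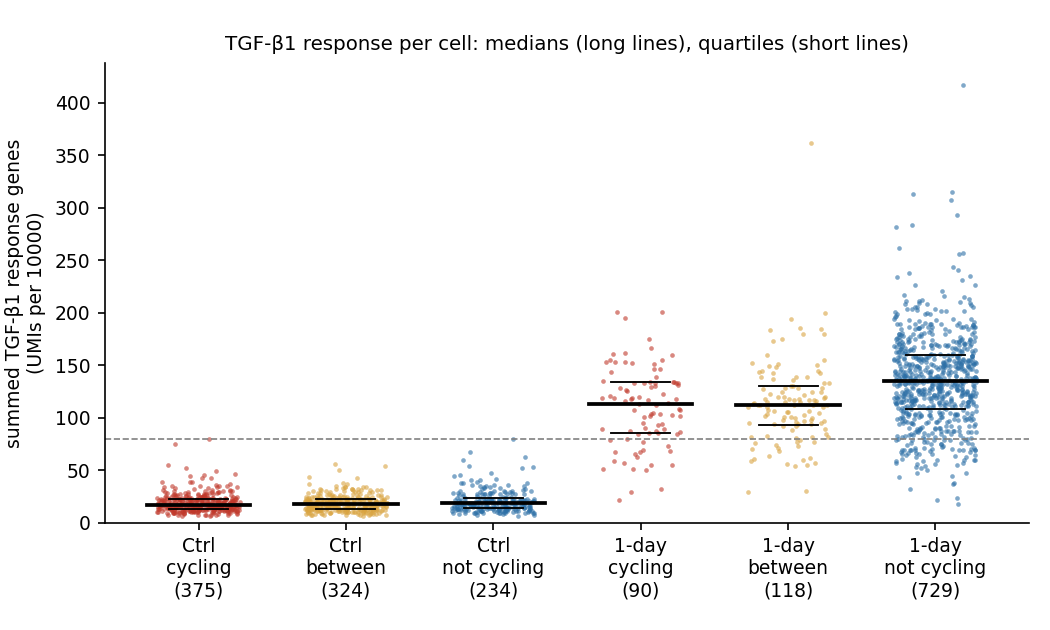
Each point is a cell, with the summed UMIs of the 59 TGF-β1 response genes per 10000 UMIs on the y axis, for cycling, between and not cycling cells of Ctrl and 1-day, with medians as long lines, quartiles as short lines and a dashed line at the highest Ctrl cell (80.3). Cells of the 3 1-day groups lie mostly above the dashed line, and the medians are 113 in cycling and 135 in not cycling cells.

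Cell cycle inhibitors differed in both directions. Of 7 CDK inhibitors, 5 reached 20 CPM, of which 2 were at least 1.5-fold higher in cycling cells (background 13.1%), 1 at least 1.5-fold lower (background 3.69%) and 2 within 1.5-fold. *CDKN2B* (ENSG00000147883, chromosome 9, 22002903 to 22009305), a TGF-β-induced inhibitor of CDK4 and CDK6, was lower, at 42.5 CPM in cycling cells (36.4 to 49.5), 56.5 CPM in between and 85.8 CPM in not cycling cells (82.2 to 89.5). Its log2 ratio was -1.01 (-1.25 to -0.79). In Ctrl it was at 7.34 and 16.1 CPM, so it was 5.80-fold and 5.32-fold higher at 1-day, a difference in log2 ratio of 0.12 (-0.33 to 0.58). At equal depth, 48.3% of cycling and 72.8% of not cycling 1-day cells had a *CDKN2B* UMI (70.0% and 85.9% without thinning), and in Ctrl 12.1% and 19.3%.

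*CDKN1A*, which inhibits the CDKs of G1 and S and is a p53 and SMAD target, was at 134 CPM in cycling (123 to 146), 138 CPM in between and 192 CPM in not cycling cells (186 to 197), a log2 ratio of -0.52 (-0.65 to -0.39). In Ctrl it was at 36.5 and 68.3 CPM, and it was 3.68-fold and 2.81-fold higher at 1-day. Both inhibitors were thus above the Ctrl level in cells that were cycling, and above the level of not cycling Ctrl cells. On the scale of UMIs per cell their log2 ratios were -0.65 and -0.15.

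The inhibitors with higher levels in cycling cells were *CDKN2C* and *CDKN2D*, of the same INK4 family as *CDKN2B* and known to be transcribed with the cell cycle. Both reached 20 CPM through cycling cells alone. *CDKN2C* was at 63.2 CPM in cycling, 25.7 CPM in between and 4.75 CPM in not cycling cells, a log2 ratio of 3.73 (3.41 to 4.06), and at 78.2 and 16.3 CPM in Ctrl. *CDKN2D* was at 42.0, 22.9 and 10.8 CPM (1.96, 1.67 to 2.24), and at 30.3 and 7.57 CPM in Ctrl. *CDKN2A* was at 787 and 704 CPM, whose counts cannot separate its p16 and ARF transcripts. *CDKN1B* was just under the filter, at 19.9 and 7.27 CPM, and *CDKN1C* rested on 1 and 4 UMIs. Of the INK4 genes, *CDKN2C* and *CDKN2D* thus lay on the side of the mitosis genes and *CDKN2B* on the other side. *CDKN2A* lay between them, with a log2 ratio of 0.16.

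**Figure D5:**
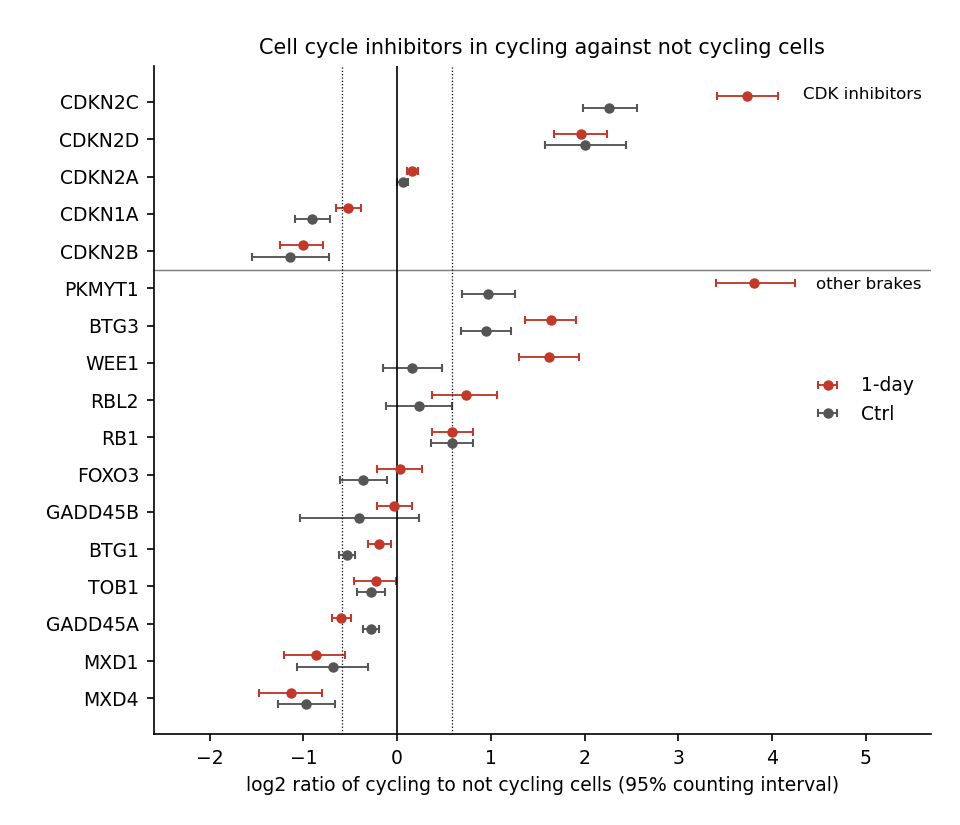
Points give the log2 ratio of cycling to not cycling cells for 5 CDK inhibitors and 12 other brakes at 20 CPM, at 1-day (red) and in Ctrl (grey), with 95% counting intervals as bars and dotted lines at a 1.5-fold difference. *CDKN2C* and *PKMYT1* are farthest to the right at 1-day, and *CDKN2B* and *MXD4* farthest to the left.

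Of 20 other brakes of the cycle, 12 reached 20 CPM, of which 5 were at least 1.5-fold higher (background 13.1%), 3 at least 1.5-fold lower (background 3.69%) and 4 within 1.5-fold. *PKMYT1* and *WEE1*, kinases that hold CDK1 inactive until mitosis, were higher, at 38.8 CPM against 2.75 CPM and at 30.7 CPM against 9.98 CPM, and reached 20 CPM through cycling cells alone. In Ctrl, *PKMYT1* was at 36.6 and 18.7 CPM, and *WEE1* at 20.8 and 18.6 CPM. *BTG3*, an antiproliferative gene regulated by E2F, and the pocket protein genes *RB1* and *RBL2* were the other 3, with log2 ratios of 1.64, 0.59 and 0.73. The 3 lower genes were *MXD4* (-1.13, -1.47 to -0.80) and *MXD1* (-0.87, -1.21 to -0.56), which encode antagonists of MYC, and *GADD45A* (-0.60, -0.70 to -0.49), a stress-induced inhibitor of CDK1. *MXD4* was at 20.9 and 45.6 CPM at 1-day and at 13.4 and 26.3 CPM in Ctrl. *GADD45B*, a direct TGF-β target, was at 66.2 and 67.5 CPM, against 4.09 and 5.43 CPM in Ctrl.

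Of 18 genes of growth and G1, 8 reached 20 CPM. *MYC* was lower in cycling cells, at 47.1 CPM against 78.9 CPM (-0.75, -0.97 to -0.53), as it was in Ctrl at 66.2 and 98.2 CPM. *CCND1*, cyclin D1, was at 361 and 417 CPM, and *CDK6* at 196 and 235 CPM. *CDK4* was at 174 and 89.8 CPM (0.96, 0.83 to 1.08) and at 262 and 202 CPM in Ctrl. *ID1*, an inhibitor of differentiation factors that TGF-β represses in epithelial cells, was at 160 and 97.1 CPM, against 279 and 259 CPM in Ctrl. Of the 8, *CDK4*, *E2F1*, *CKS1B* and *ID1* were at least 1.5-fold higher (4 of 8, background 13.1%) and *MYC* was the 1 lower by that much (background 3.69%). *E2F1* reached 20 CPM through cycling cells alone.

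Epithelial markers of the line were present in both groups. *EPCAM*, the epithelial adhesion molecule, was at 355 and 356 CPM. *KRT8* and *KRT18*, the keratin pair of simple epithelia, were at 1048 against 1609 CPM and at 1203 against 1828 CPM (log2 ratios -0.62 and -0.60). *KRT19* was at 528 CPM in cycling, 1007 CPM in between and 1060 CPM in not cycling cells (-1.01, -1.07 to -0.94), and at 980 and 1480 CPM in Ctrl. *ESRP1*, an epithelial splicing factor, and *ELF3*, an epithelial transcription factor, were higher, at 48.1 against 28.6 CPM and at 65.4 against 42.2 CPM. Of 20 epithelial genes, 14 reached 20 CPM, with 2 at least 1.5-fold higher (background 13.1%), 4 lower by that much (background 3.69%) and a median log2 ratio of -0.22. The share of higher genes was thus near the background, while that of lower genes was above it. The 4 lower genes were *KRT8*, *KRT18*, *KRT19* and *CDH1*, which encodes E-cadherin, at a log2 ratio of -0.63. None of the 14 markers of immune, endothelial, fibroblast or muscle cells reached 20 CPM. *PTPRC*, *CD3E*, *CD14*, *PECAM1* and *VWF* had no UMI in either 1-day group, and the most counted were *CD68*, with 4 and 88 UMIs, and *LUM*, with 2 and 16.

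The 10 genes of lowest ratio were *KCNJ16*, *SLC40A1*, *KRT6A*, *PALMD*, *ARL14*, *TP53INP2*, *RP1-60O19.1*, *CXCL8*, *IGFL1* and *SNHG18*, from -1.55 to -1.26. Of these, *KCNJ16*, *SLC40A1*, *ARL14*, *TP53INP2*, *RP1-60O19.1* and *SNHG18* passed 20 CPM through not cycling cells alone, which fixed their direction at 1-day. *IGFL1*, a secreted IGF-like protein, was at 560 CPM in cycling, 1205 CPM in between and 1353 CPM in not cycling cells (-1.27, -1.34 to -1.21), and at 10.0 and 54.3 CPM in Ctrl. *CXCL8*, the chemokine IL-8, was at 40.3 and 98.3 CPM, and at 62.9 and 149 CPM in Ctrl. *SLC40A1*, the iron exporter ferroportin, was at 8.05 and 23.0 CPM, and at 19.2 and 58.0 CPM in Ctrl. *PALMD*, which encodes palmdelphin, was at 39.0 CPM against 100.2 CPM at 1-day and at 13.1 and 13.8 CPM in Ctrl. The low ratio of *IGFL1*, *CXCL8* and *SLC40A1* was thus also present without treatment, and that of *PALMD* was not. The ratio at 1-day was below that in Ctrl most for *DAB2*, *XPR1*, *KRT6A*, *TSC22D1* and *SERPINE2*. *DAB2*, an endocytic adaptor of TGF-β receptors, was at 24.4 and 45.4 CPM at 1-day and at 42.6 and 34.8 CPM in Ctrl, a difference in log2 ratio of -1.19 (-1.56 to -0.82).

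*SOX4*, *SNAI2*, *COL1A1*, *FN1*, *LGALS3* and *LGALS3BP* were listed because the study names them, the last for patient tumours and not for this line. Of these 6, *SOX4* was at least 1.5-fold lower and 5 were within 1.5-fold, a share near that of all genes (83.2%). *LGALS3*, which encodes galectin-3, was at 656 and 738 CPM (-0.17, -0.23 to -0.11), with quartiles per cell from 4.98 to 8.14 and from 4.96 to 9.88 UMIs per 10000. *LGALS3BP*, which encodes its binding protein, was at 20.6 and 26.3 CPM, and *FN1*, fibronectin, at 71.2 and 86.7 CPM. On the scale of UMIs per cell the log2 ratio of *LGALS3* was 0.19, where the median of all genes was 0.43.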

How the data were processed

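Droplet-based scRNA-seq was performed on OVCA420 cells, and the authors deposited raw UMI counts for every gene in each cell, made with Cell Ranger 2.0.1 (per the submitters' processing notes) on GRCh38. Counts of the first 941 Ctrl, 945 1-day, 712 3-day and 572 7-day cells in barcode order were analysed here, of 3372, 2601, 2253 and 2484 listed. Their retained cells hold 29995994, 32949874, 32139723 and 25382817 UMIs, which are part of each library's depth. Cells with more than 200 genes and at most 20% mitochondrial UMIs were retained. The study's limit on mitochondrial UMIs is not given in the sources used here.

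Counts were summed per group of cells and given as CPM (scaled to the same total per group). Log2 ratios have exact conditional 95% intervals, shares exact binomial intervals, and differences between libraries in a log2 ratio approximate normal intervals on the log scale. All cover counting error only. Where a sum was 0, 3 counts were used in its place. No test was possible with 1 library per condition. Phases were called in scanpy 1.11.5 with the lists of Seurat 5.3.0, and doublets, marked by Scrublet, were retained. Positions are from GENCODE release 44, matched by Ensembl identifier, and promoters from RefSeq. The interval of log2 ratios was tried on simulated Poisson counts without variation from cell to cell. That is the interval's own model, so the simulation does not check it on these cells.

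The group limits and gene lists were chosen with earlier results of these data known. Named genes are the members of the lists, the 10 highest and 10 lowest ratios at 20 CPM in either group, and the 5 highest and 5 lowest differences from Ctrl at 20 CPM in all 4 groups, and some of them are not reported here. Alternatives were equal depth (18000 UMIs), other *TOP2A* limits, *MKI67* groups, doublets left out, other mitochondrial, depth and CPM limits, parts of the cells, G1 cells only, other scalings, means over cells and another fold.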

Additional observations from a re-analysis of the deposited data

Results flagged for a closer look

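Some differences between 1-day and Ctrl had opposite signs in cycling and in not cycling cells. None of these differences was tested, since each group of each condition comes from 1 library. Over the 61 mitosis genes at 20 CPM in either 1-day group, the median log2 ratio of 1-day to Ctrl was 0.42 in cycling and -0.98 in not cycling cells. Members such as *UBE2C* passed that limit through cycling 1-day cells alone, so these medians are descriptions only. *PTTG1*, securin, had a log2 ratio of 0.50 in cycling and -1.21 in not cycling cells. *CKS1B*, a CDK partner, was at 0.28 and -1.32, and *KIAA0101*, a PCNA-binding factor, at 0.16 and -1.40. Another order was found for *DAB2*, an endocytic adaptor, at -0.80 in cycling and 0.38 in not cycling cells, and for *KRT6A*, a keratin of stratified epithelia, at -0.65 and 0.34. *PTTG1*, *CKS1B* and *KIAA0101* were named as 3 of the 5 highest, and *DAB2* and *KRT6A* as 2 of the 5 lowest, differences between these same ratios among 4250 genes. That choice fixed that their values diverge. The share of all genes with opposite signs was not counted. The not cycling group holds 48 S and 14 G2/M cells of 729 at 1-day, and 60 and 4 of 234 in Ctrl, whose part in these values was not tested.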

How the results depend on the processing

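Over the 9 main results, 117 values under alternatives kept their direction and stayed within a set range, 19 moved further and 2 changed sign. The share of cells and the gene counts have no sign to change, and the mitosis median restates the choice of cells. For these the tally says nothing about direction. The range was the counting interval for the share of cells and 1.5 times the count for the gene counts. For list medians it was the 95% interval of the median over the members. For the 5 CDK inhibitors that was their full span, -1.01 to 3.73, so staying within it says little. The share of cycling cells, 9.61%, was 5.87% with *TOP2A* at 10 or more, and 6.84% and 12.4% in the earlier and the later part of the cells in barcode order. The 749 genes higher in cycling cells became 2305 on the scale of UMIs per cell, where the minimum on that scale left 6363 genes (1964 over the same 5716 genes), 1427 and 344 with minimum levels of 5 and 50 CPM, 376 at 2-fold and 5743 with no minimum, a setting chosen after seeing the data. The 211 lower genes became 31, 604, 81, 26 and 2200 under these settings, and 336 with median-of-ratios scaling. The median log2 ratio of the TGF-β1 response list, -0.22, was -0.14 in the earlier part of the cells and 0.14 on the scale of UMIs per cell. The median of all 6363 genes counted on that scale was 0.45. That of the CDK inhibitors, 0.16, was -0.18 at 50 CPM, where fewer genes are counted. It was 0.96 with the stricter *TOP2A* limits, and 0.83 both without doublets and in the later part of the cells. It was 0.81 at 5 CPM, 1.07 with no minimum and 1.17 on the scale of UMIs per cell. Under the other settings it lay between 0.06 and 0.18. That of the mitosis list, 4.65, was 5.40 with the stricter *TOP2A* limits, 5.25 against not cycling cells in G1 and 5.02 on the scale of UMIs per cell, and that of the DNA replication list, 2.32, was 2.07 with groups formed on *MKI67*. For 19 named genes, 178 values stayed within the counting interval, 62 moved beyond it with the same sign and 7 changed sign. *SNAI2* was at 0.18 and 0.15 after thinning, the latter with groups formed on thinned counts, at 0.07 in the earlier part and at 0.19 per cell. *PMEPA1* was at 0.01 with the stricter limits and at 0.29 per cell, and *LGALS3* at 0.19 per cell. These per-cell values lay below the median of all 5716 genes on that scale, 0.43. For scaling and filters the alternative's own construction gives the change, and for the other settings the cause was not tested. Depth limits genes under about 20 CPM, where the 90 cycling cells give fewer than 80 UMIs. No paired analysis was possible because the conditions have no replicates to pair. Part of each library's cells was analysed here.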
